A study of Mus musculus with 12 samples.

Results

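The genes described here were those that β2-adrenergic stimulation raised within 1 h in mouse macrophages and that were still raised at 4 h. They were chosen by their measured values. The counts of each library were scaled to a total of 1000000 (CPM), and a gene was kept when its mean over the 12 libraries was at least 2 CPM, when the group mean at 1 h and the group mean at 4 h were each at least 2 times the untreated mean after adding 0.1 CPM, and when both times were above untreated in all 4 mice. The rule kept 154 of the 10566 genes with a mean of at least 2 CPM, out of 53379 genes listed. Bone marrow-derived macrophages (BMDMs) came from 4 C57Bl/6J mice aged 8 to 20 weeks and were grown for 7 days in medium containing L929 cell conditioned medium. From every mouse, 1 culture had no fenoterol and the others had 1 µM fenoterol, an agonist of the β2-adrenergic receptor, for 1 or 4 h. All cells stayed in the same macrophage medium throughout, and the untreated culture of each mouse was the control for both times. The macrophages were cultured from bone marrow and were not tissue macrophages.

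The β2-adrenergic receptor couples to Gs, which activates adenylyl cyclase and raises cyclic AMP (cAMP). Cyclic AMP activates protein kinase A (PKA), which phosphorylates the transcription factor CREB, and CREB binds the cAMP response element (CRE) in promoters of its target genes. The first targets include further transcription factors and inhibitors of the pathway itself, so that in many cells the first wave of transcripts is short-lived while products of the second wave accumulate later. In macrophages the pathway is known to change cytokine output, adhesion and lipid handling.

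Total counts were 14580533 to 24153284 per library. The summed level of 8 macrophage markers was 39083 to 40537 CPM in untreated cells, 34090 to 39145 CPM at 1 h and 34200 to 38358 CPM at 4 h. Markers of neutrophils, T cells, B cells, dendritic cells, mast cells or basophils, fibroblasts, erythroid cells and osteoclasts were low in all 12 libraries. The largest sums among them were 68.4 CPM for fibroblast markers, in untreated cells, and 51.6 CPM for neutrophil markers, also in untreated cells. The macrophage sum at 4 h lay below that in untreated cells in all libraries, and its part in the results was not tested. The ranges of the other sums overlapped between untreated cells and each time, and 4 of 5 erythroid markers were at 0 in all libraries. In bulk RNA, fewer cells of a type and less RNA per cell cannot be told apart.

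Levels given as a number of times untreated are ratios of group means with 0.1 CPM added to each, as in the rule, which lowers the ratio of genes with little expression in untreated cells. On this scale the median member was at 4.62 times its untreated level at 1 h (range 2.01 to 691) and at 3.88 times at 4 h (range 2.02 to 130). In 4 members every untreated library held at most 3 counts. With these members set to the bound that a floor of 3 counts per untreated library allows, the medians were 4.61 and 3.85. Of the 154 members, 17 exceeded 10 times the untreated level at both times and 55 stayed under 4 times at both. At an adjusted p under 0.05 in edgeR, 153 members were called higher at 1 h and 154 at 4 h. Because the rule used these contrasts, nothing is read from those calls. Over all 12386 genes tested, 10.0% were called higher and 10.1% lower at 1 h, and 19.7% higher and 20.4% lower at 4 h.

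The rule set no order between 1 h and 4 h, so this comparison was tested, although the floor of 2 CPM bears on it for some members. The genes did not hold a common level. At 4 h, 40 members (26.0%) were higher than at 1 h, 73 (47.4%) were lower and 41 (26.6%) did not pass the test. Over all genes tested 18.7% were higher and 19.8% lower. The rule limits how far a member can fall, since a gene back under 2 times its untreated level at 4 h is no member. It sets no such limit on a rise. The floor on the mean of 12 libraries also admitted some members only through their higher time. Had 4 h stayed at the 1 h mean, 11 members would have been under the floor, among them 9 of the 40 that rose (Ramp3, Dmkn, Vdr, Slc4a11, Gng4, Gm38079, Selp, Abtb2 and Tarm1). Had 1 h been at the 4 h mean, 6 would have been under it, among them 4 of the 73 that fell (Ptgs2, Tnfaip6, Nr4a3 and Pxdc1). For these 13 genes the direction after 1 h was in part a condition of membership. Without all 17, a count added after the data were seen, 31 members were higher and 69 lower at 4 h, with 37 not called. In the median member, 83.8% of the gain made by 1 h was present at 4 h. That share was 42.9% in the members that fell and 326% in those that rose. The 4 libraries at 4 h all lay above the 4 at 1 h in 43 members and all below in 64. Together these were 69.5% of the members, against 39.2% of all genes tested. By mouse, 4 h was above 1 h in all 4 mice for 56 members and in none for 69. At the far ends, 27 members were at 2 or more times their 1 h level at 4 h, and 7 kept under 10% of their 1 h gain. Shares over all genes tested are not given for the counts by mouse and at the far ends. Those counts describe the members and do not set them apart from other genes.

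**Figure D1:**
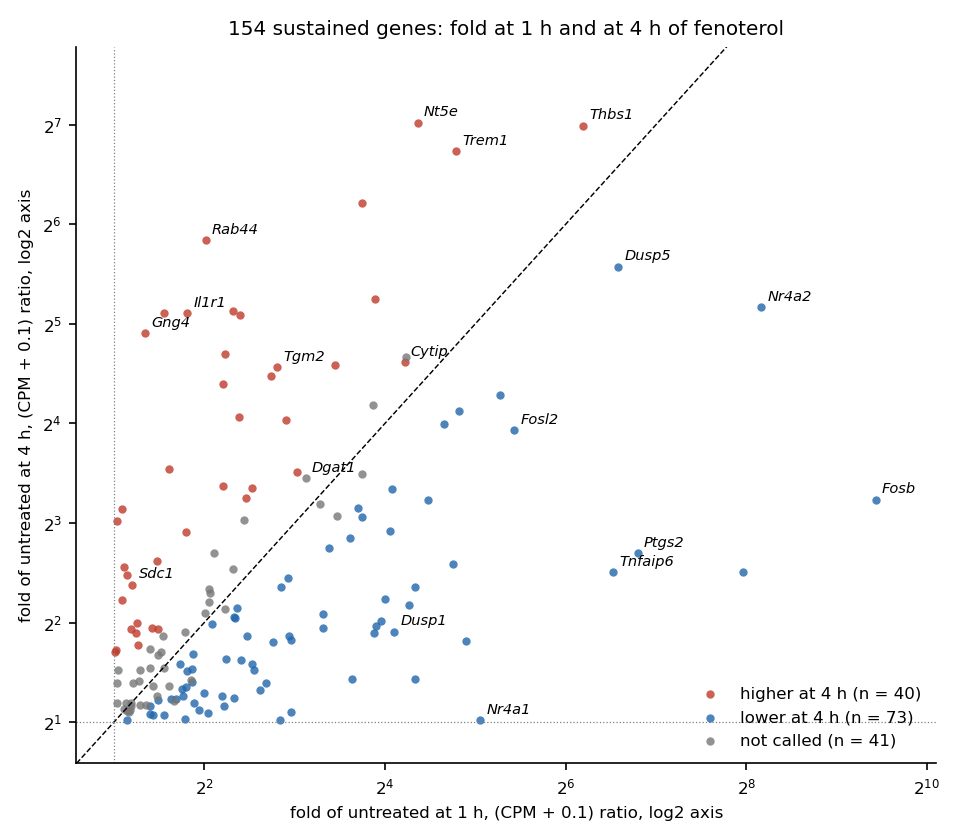
Each point is 1 of the 154 members. The horizontal axis gives the ratio of the mean at 1 h to the untreated mean and the vertical axis the same ratio at 4 h, both with 0.1 CPM added and on log2 axes. Dotted lines mark the rule's limit of 2 and the dashed line equal ratios. Colours give the edgeR call of 4 h against 1 h (40 higher, 73 lower, 41 not called), and Nr4a1 lies on the limit at 4 h after 33.2 times at 1 h.

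The rule was also applied to 3 mice at a time and the genes so chosen were read in the mouse left out. Of 156 genes chosen without mouse 1, 141 (90.4%) were at 2 or more times untreated at both times in mouse 1. The corresponding numbers were 141 of 155 (91.0%) for mouse 2, 136 of 152 (89.5%) for mouse 3 and 127 of 159 (79.9%) for mouse 4. Among the 10566 genes with a mean of at least 2 CPM, 1.42% to 1.75% met the same limit in a single mouse. Mouse 4 gave the lowest share in both respects. Genes chosen for a rise in 3 mice given the same treatment are set here beside unselected genes, so a gap was built in. From 146 to 151 of the chosen genes were members themselves. The shares describe each mouse, and no support for the set is drawn from them.

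**Figure D2:**
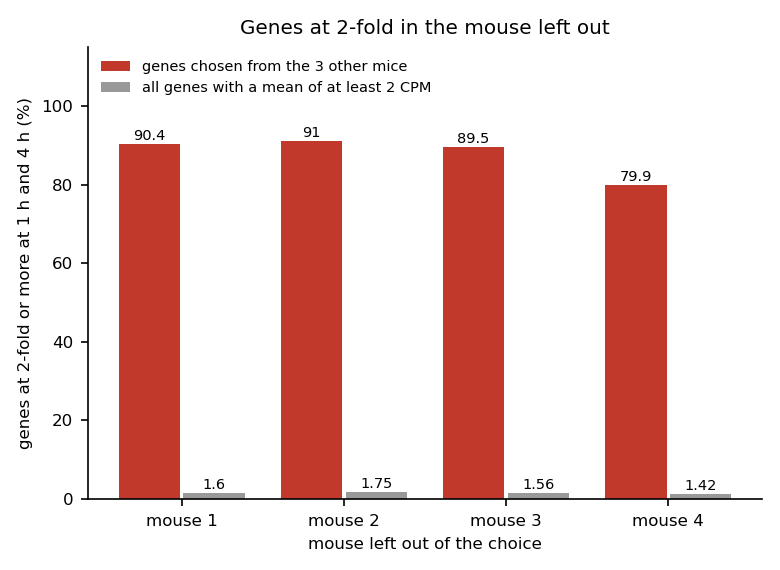
Bars give the percentage of genes at 2 or more times the untreated level at both 1 h and 4 h in the mouse left out. Red bars are genes chosen from the 3 other mice (79.9% to 91.0%) and grey bars are all genes with a mean of at least 2 CPM (1.42% to 1.75%). A gap between them was built in by the choice.

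Transcription regulators were the largest listed group and mostly declined after 1 h. Of 15 members on that list, 12 were lower at 4 h than at 1 h (19.8% of all genes tested and 47.4% of all members were), 1 was higher and 2 were not called, with a median log2 difference between 4 h and 1 h of -1.23 against 0.01 over all genes tested. The list also held Spry2, which is an inhibitor of receptor kinase signalling and not a transcription factor. Vdr (higher) and Nr4a3 (lower) count in these numbers, although their direction after 1 h was in part a condition of membership. Fosb, a partner of Jun proteins in AP-1 (ENSMUSG00000003545, chr7:19302696-19310051, minus strand), was at 0.620, 0.480, 0.646 and 0.281 CPM in untreated cells of mice 1 to 4. It reached 437, 485, 391 and 363 CPM at 1 h and was back to 4.92, 5.53, 6.51 and 5.47 CPM at 4 h. All 4 h values were thus far below those at 1 h and still above every untreated value, and the log2 difference between 4 h and 1 h was -6.32 ± 0.13 (SE; adjusted p = 5.1e-13).

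The NR4A orphan nuclear receptors, immediate early targets of CREB, showed the same order of groups with 3 different end points. Nr4a1 had 4.83 to 8.30 CPM untreated, 213 to 242 CPM at 1 h and 8.48 to 16.4 CPM at 4 h, and its level at 4 h overlapped none of the other groups. Nr4a2 was at 0.393 to 0.754 CPM untreated, at 160 to 213 CPM at 1 h, and at 19.5 to 27.5 CPM at 4 h. Nr4a3 went from 0.0497 to 0.274 CPM untreated to 43.9 to 72.4 CPM at 1 h and to 0.972 to 1.46 CPM at 4 h. With 0.1 CPM added to each mean, 4 h was at 2.03 times untreated for Nr4a1, 36.0 times for Nr4a2 and 5.67 times for Nr4a3. The log2 differences between 4 h and 1 h were -4.13 ± 0.17 for Nr4a1 and -3.09 ± 0.11 for Nr4a2 (SE, adjusted p at most 2.8e-10). For Nr4a3 it was -5.66 ± 0.21 (SE). As Nr4a3 passed the floor of 2 CPM only through its 1 h level, this fall was in part a condition of membership.

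Other regulators came down less far. Fosl2, also an AP-1 protein, was at 25.2 to 29.5 CPM untreated, 1034 to 1268 CPM at 1 h and 368 to 464 CPM at 4 h. Fos went from 24.8 to 34.3 CPM to 428 to 577 CPM and then to 199 to 260 CPM, so that 42.0% of its gain was left. Nfil3, a bZIP repressor, kept 21.7% of its gain and Cebpb, a bZIP factor of myeloid cells, kept 37.4%. Tmem189 shares 20.7% of the exon bases of Cebpb on the opposite strand, so the Cebpb counts are uncertain. Vdr, the vitamin D receptor, was the member of this list that rose after 1 h. Its values were 0.266, 0.343, 0.298 and 0.785 CPM untreated, 2.10, 1.31, 0.973 and 1.37 CPM at 1 h, and 17.2, 23.0, 17.2 and 14.2 CPM at 4 h. The Vdr level at 4 h exceeded that at 1 h in every mouse, with a log2 difference of 3.54 ± 0.25 (SE). As Vdr passed the floor of 2 CPM only through its 4 h level, this rise was in part a condition of membership.

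To show what the promoters of these genes hold, RefSeq promoters on GRCm38.p6, reaching from 250 bases before to 50 bases after each transcript start, were searched on both strands for the CRE palindrome TGACGTCA and for its shorter form TGACG, which reads CGTCA on the other strand. An entry existed for 121 of the 154 members, with 159 promoters. The stretches below come from members that fell after 1 h, printed 5′ to 3′ on the gene's strand with TGACG or CGTCA in capitals.
Dusp1, chr17:26508588-26508635, minus strand: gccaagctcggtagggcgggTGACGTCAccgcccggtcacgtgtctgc
Fosb, chr7:19310081-19310125, minus strand: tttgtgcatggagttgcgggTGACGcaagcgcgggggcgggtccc
Fos, chr12:85473804-85473848, plus strand: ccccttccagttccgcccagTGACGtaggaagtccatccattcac
Nr4a1, chr15:101266757-101266830, plus strand: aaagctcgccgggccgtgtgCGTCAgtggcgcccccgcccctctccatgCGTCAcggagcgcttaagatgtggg
Nr4a2, chr2:57124090-57124167, minus strand: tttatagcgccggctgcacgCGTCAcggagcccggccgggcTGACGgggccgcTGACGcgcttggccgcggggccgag
Nr4a3, chr4:48045055-48045124, plus strand: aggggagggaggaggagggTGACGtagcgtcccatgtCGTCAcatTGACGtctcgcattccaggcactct
The next stretches come from members that rose after 1 h, Il1r1, Gng4 and Dmkn, and from Homer1, which was not called, and they show that the short form was present there too.
Il1r1, chr1:40225037-40225079, plus strand: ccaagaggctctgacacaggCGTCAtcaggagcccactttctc
Gng4, chr13:13784236-13784291, plus strand: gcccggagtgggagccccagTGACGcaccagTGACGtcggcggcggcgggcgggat
Dmkn, chr7:30776208-30776252, plus strand: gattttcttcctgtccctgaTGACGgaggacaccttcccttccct
Homer1, chr13:93303681-93303756, plus strand: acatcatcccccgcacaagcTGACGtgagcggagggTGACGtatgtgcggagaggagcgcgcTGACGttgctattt
In Dusp1 the capitals run together into the whole palindrome, 143 bases before the start. In the printed stretches the short form stood 60 bases before the start in Fosb and 66 bases before it in Fos. Fos held a further copy 129 bases before the start. In the Nr4a1 stretch it stood at 69 and 40 bases before the start, in the Nr4a2 stretch it occurred 3 times and in the Nr4a3 stretch 3 times. Homer1 also had 3 copies, the nearest 14 bases from the start. A match is a stretch of letters and was not tested for binding.

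Over all matched members, 1.26% of promoters (2 of 159, in Dusp1 and Taf11) held the palindrome, against 3.02% of promoters of all genes tested and 1.79% of all 32851 promoters in the table. The short form was in 34.6% of the members' promoters, against 31.1% in all genes tested and 20.8% in the whole table. By direction after 1 h, it was in 43.9% of the 82 promoters of members that fell, 26.8% of the 41 of members that rose and 22.2% of the 36 of members that were not called. Promoters of members that fell had a median of 23.5 CpG and 64.5% GC, those of members that rose 7 CpG and 56.3% GC and those of members not called 19.5 CpG and 62.7% GC, with 20 CpG and 60.7% GC over all genes tested. At least 15 CpG were present in 67.1% of promoters of falling members, 36.6% of those of rising members, 63.9% of those not called and 66.8% of those of all genes tested. Members not called thus had the lowest share with the short form and a base composition near that of all genes tested. The short form itself contains a CpG, and the part of base composition in its share was not tested. These are descriptions of promoters, several of which belong to the same gene.

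**Figure D3:**
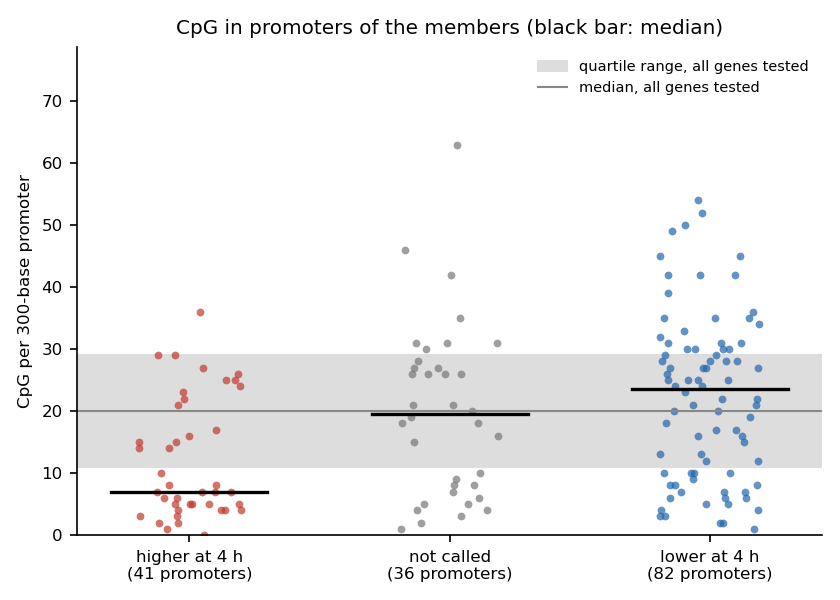
Points are promoters of the members, 300 bases each, by the edgeR call of 4 h against 1 h, and the vertical axis counts CpG in each promoter. Black bars are medians (7, 19.5 and 23.5 CpG for higher, not called and lower). The grey band and line are the quartile range (11 to 29) and median (20) over promoters of all genes tested.

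The list of kinase and GTPase brakes held 8 members, among them the kinases Pim1, Sgk1 and Plk3. Of the 8, 7 were lower at 4 h than at 1 h, against 19.8% of all genes tested and 47.4% of all members, and none was higher. Spry2 was not called in the fit (log2 difference -0.27 ± 0.11, SE; adjusted p = 0.056). It was called lower with the mouse as a block (adjusted p = 0.035), with limma-voom (adjusted p = 0.033), with a mean count of at least 50 (adjusted p = 0.049) and without the 1 h library of mouse 3 (adjusted p = 0.045) or the 4 h library of mouse 1 (adjusted p = 0.038). The list's median log2 difference was -1.05. Dusp1, a phosphatase of p38 and JNK whose promoter palindrome is printed above, was at 15.6, 14.5, 19.1 and 17.1 CPM untreated, at 314, 294, 302 and 236 CPM at 1 h and at 59.4, 56.3, 68.8 and 65.6 CPM at 4 h. The groups did not overlap, and 17.0% of its gain remained. Dusp5, a nuclear phosphatase of ERK (chr19:53529109-53542431, plus strand), kept more. It rose from 1.85 to 2.81 CPM to 200 to 262 CPM at 1 h and was at 96.5 to 149 CPM at 4 h, which is 47.6 times untreated with 0.1 CPM added to each mean. Pim1, a serine/threonine kinase, and Sgk1, a kinase of the AGC family, had log2 differences between 4 h and 1 h of -1.38 ± 0.07 and -0.85 ± 0.08 (SE, adjusted p at most 1.2e-06).

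The cAMP pathway itself supplied 6 members, of which 5 were lower at 4 h than at 1 h and 1 was higher (median log2 difference -0.77). Lower were 19.8% of all genes tested and 47.4% of all members, and higher were 18.7% and 26.0%. Upstream in the pathway stood Adora2b, a Gs-coupled adenosine receptor, at 1.23 to 2.36 CPM untreated, 42.7 to 49.8 CPM at 1 h and 26.3 to 34.8 CPM at 4 h. The 2 phosphodiesterases, which degrade cAMP, moved in opposite directions after 1 h. Pde4b went from 30.0, 35.9, 28.1 and 34.8 CPM to 332, 353, 303 and 292 CPM and then to 124, 166, 137 and 122 CPM. Pde4d went from 1.77, 1.99, 2.04 and 1.85 CPM to 16.5, 18.2, 14.6 and 16.1 CPM and then to 20.9, 26.0, 23.7 and 20.9 CPM. Their log2 differences between 4 h and 1 h were -1.32 ± 0.11 for Pde4b (SE; adjusted p = 2.5e-07) and 0.39 ± 0.10 for Pde4d (SE; adjusted p = 0.0057).

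Nearest to CREB stood Crem, a CREB relative whose short forms repress CRE promoters, and Sik1, a kinase that keeps the CREB coactivators out of the nucleus. Crem was at 8.42 to 12.5 CPM untreated, 236 to 332 CPM at 1 h and 160 to 200 CPM at 4 h, and 60.3% of its gain remained. Sik1 was at 9.39, 13.2, 1.09 and 11.6 CPM untreated, at 242, 260, 227 and 236 CPM at 1 h and at 52.0, 67.9, 43.6 and 50.3 CPM at 4 h. Mouse 3 was the lowest sample in each of the 3 groups. Rgs1, which speeds GTP hydrolysis on Gi and Gq proteins, was at 12.7 to 19.6 CPM untreated, 81.9 to 138 CPM at 1 h and 73.5 to 93.3 CPM at 4 h, so that the 2 treated groups overlapped (log2 difference -0.58 ± 0.15, SE; adjusted p = 0.0065).

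The rest of the cAMP lists gives the setting. Of 90 genes listed, 74 were tested. At 1 h, 13 of the 74 (17.6%) were higher than untreated and 12 (16.2%) were lower, against 10.0% and 10.1% of all genes tested. At 4 h, 25 (33.8%) were higher and 21 (28.4%) lower, against 19.7% and 20.4% of all genes tested. The 6 members, which the rule chose for being higher, are among these. Of the 68 that were not members, 7 (10.3%) were higher and 12 (17.6%) lower at 1 h. Among the same 68, 19 (27.9%) were higher and 21 (30.9%) lower at 4 h. With the mouse as a block 11 of the 68 were higher at 1 h, and with library size as the only scaling 19 were lower. Ptger4, a Gs-coupled receptor of prostaglandin E2, fell from 37.5 ± 7.8 CPM to 7.10 ± 0.79 and 7.44 ± 1.31 CPM (SD, n = 4). Pde3b and Pde8a, also phosphodiesterases, were higher at 4 h, with log2 fold changes of 2.92 ± 0.15 and 1.62 ± 0.07 against untreated (SE, adjusted p at most 1.3e-09). Pde3b was also higher at 1 h (0.87 ± 0.14, adjusted p = 0.00045), while Pde8a was not called at 1 h (0.13 ± 0.07, adjusted p = 0.18).

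Further non-members of these lists passed the test at 4 h in either direction. Prkar1a, a regulatory subunit of PKA, Sik3 and the CREB coactivator Crtc3 were higher, with log2 fold changes of 0.66 ± 0.05, 0.85 ± 0.06 and 1.19 ± 0.09. Akap10, an anchor protein for PKA, the cyclase Adcy9, the PKA inhibitor Pkib and Rgs10 were lower, with -1.25 ± 0.06, -1.37 ± 0.09, -2.69 ± 0.18 and -0.91 ± 0.06 (SE throughout, adjusted p at most 7.6e-08). Rgs10 was not called at 1 h (adjusted p = 0.10) and was called lower there with the mouse as a block (adjusted p = 0.043). With library size as the only scaling it was also called lower at 1 h (adjusted p = 0.015). Rgs2 was higher at both times, with 1.55 ± 0.09 at 1 h and 0.79 ± 0.08 at 4 h (SE, adjusted p at most 3.0e-06), but its mean at 4 h was under 2 times that in untreated cells, so it was no member.

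Of the lipid storage list, 3 genes were members. Dgat1, which catalyses the last step of triglyceride synthesis, was at 14.8, 17.3, 18.2 and 17.1 CPM untreated, at 162, 170, 129 and 130 CPM at 1 h and at 180, 232, 162 and 167 CPM at 4 h. In each mouse 4 h was above 1 h, but the 2 groups overlapped and the log2 difference of 0.24 ± 0.12 (SE) was not called (adjusted p = 0.14). Dgat1 was called higher at 4 h with the mouse as a block (adjusted p = 0.019) and with library size as the only scaling (adjusted p = 0.034). Hilpda, an inhibitor of the triglyceride lipase ATGL, was at 4.12, 5.35, 5.81 and 4.49 CPM untreated, at 75.8, 58.1, 60.7 and 51.5 CPM at 1 h and at 38.8, 31.6, 40.3 and 34.7 CPM at 4 h. Hilpda was lower at 4 h than at 1 h (-0.85 ± 0.12, SE; adjusted p = 5.4e-05), with 55.5% of its gain left. Ptgs2, the inducible cyclooxygenase, kept 4.97% of its gain, going from 0.199 to 0.343 CPM to 28.8 to 58.7 CPM and then to 2.11 to 2.92 CPM. Ptgs2 passed the floor of 2 CPM only through its 1 h level.

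Among transporters of the glycolysis and transport list, 2 members rose between 1 h and 4 h and 1 did not pass the test. Of all genes tested 18.7% rose, and of all members 26.0%. Slc16a3, the lactate exporter MCT4, was at 35.7 to 39.6 CPM untreated, 241 to 356 CPM at 1 h and 565 to 740 CPM at 4 h (log2 difference 1.04 ± 0.12, SE; adjusted p = 6.5e-06). Slc7a11, the cystine and glutamate exchanger, was at 0.505 to 1.33 CPM, 2.49 to 5.06 CPM and 5.42 to 11.6 CPM in the same order (1.03 ± 0.28, SE; adjusted p = 0.010). Slc2a1, the glucose transporter GLUT1, was at 28.8 to 34.4 CPM untreated, and its ranges of 80.3 to 106 CPM at 1 h and 83.2 to 101 CPM at 4 h overlapped (-0.11 ± 0.10, SE; adjusted p = 0.42).

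Of the 6 secreted ligands, 4 were lower at 4 h than at 1 h and none was higher, with a median log2 difference of -0.57. Over all genes tested 19.8% were lower, and over all members 47.4%. Il1b, an inflammatory cytokine, went from 2.83, 5.76, 2.58 and 3.14 CPM to 85.9, 103, 66.4 and 72.1 CPM and then to 27.4, 48.2, 28.2 and 33.5 CPM. Osm, a cytokine of the IL-6 family, kept 14.9% of its gain, with 7.48 to 8.37 CPM untreated, 88.0 to 111 CPM at 1 h and 19.7 to 23.0 CPM at 4 h. Vegfa, the endothelial growth factor, kept 59.1%, with 28.3 to 59.9 CPM, 514 to 695 CPM and 352 to 464 CPM. Tnfsf14, the TNF family ligand LIGHT, was lower at 4 h (-0.31 ± 0.11, SE; adjusted p = 0.038), but this call was lost with library size as the only scaling and when 1 of the 1 h libraries of mice 1, 2 and 3 or 1 of the 4 h libraries of mice 2, 3 and 4 was left out (adjusted p from 0.050 to 0.12). Tgfb3 was not called (-0.35 ± 0.14, SE; adjusted p = 0.055) and was called lower with the mouse as a block (adjusted p = 0.0037), with DESeq2 (adjusted p = 0.038), with limma-voom (adjusted p = 0.040), with no filter on low counts (adjusted p = 0.048) and without the 1 h library of mouse 4 (adjusted p = 0.0086) or the untreated library of mouse 3 (adjusted p = 0.049) or mouse 4 (adjusted p = 0.050). Il1rn, the antagonist of IL-1 receptors, was at 7.0 to 12.3 CPM untreated, 16.5 to 31.3 CPM at 1 h and 22.0 to 34.5 CPM at 4 h and was not called between the times (0.14 ± 0.21, SE; adjusted p = 0.65).

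The matrix and wound list split, with 3 of 5 members higher at 4 h than at 1 h and 2 lower. Over all genes tested 18.7% were higher and 19.8% lower, and over all members 26.0% and 47.4%. Thbs1, a matricellular glycoprotein (chr2:118111876-118127133, plus strand), was at 106, 107, 84.1 and 73.7 CPM untreated, at 7280, 7788, 5921 and 6141 CPM at 1 h and at 11396, 13247, 11273 and 11418 CPM at 4 h. Every library at 4 h was above every library at 1 h. With 0.1 CPM added to each mean, 1 h was at 73.0 times untreated and 4 h at 127 times, and the log2 difference between the times was 0.71 ± 0.13 (SE; adjusted p = 0.00043). Tgm2, a crosslinking transglutaminase, went from 60.2 to 82.3 CPM to 417 to 525 CPM and on to 1529 to 1682 CPM. Sdc1, a cell surface proteoglycan, rose by 1.09 ± 0.16 (SE) on the log2 scale between the times. On the falling side, Tnfaip6, a hyaluronan-binding protein, was at 0 CPM in 3 untreated libraries and 0.0443 CPM in the fourth, at 6.95 to 13.4 CPM at 1 h and at 0.163 to 0.811 CPM at 4 h. Against a floor of 3 counts per untreated library it was at least 61.9-fold higher at 1 h and at least 3.23-fold higher at 4 h. Tnfaip6 passed the floor of 2 CPM only through its 1 h level, so its fall was in part a condition of membership. Plaur, the urokinase receptor, kept 67.8% of its gain.

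Of the 11 members on the list of surface receptors, 8 were higher at 4 h than at 1 h, 1 was lower and 2 were not called. Higher were 18.7% of all genes tested and 26.0% of all members. The median log2 difference of the list was 1.07. Cytip and Cyth1, also on this list, act inside the cell. Nt5e, the enzyme CD73 that makes adenosine from AMP at the cell surface, was at 0.0886, 0.0686, 0.199 and 0 CPM untreated, at 5.31, 4.65, 2.43 and 2.74 CPM at 1 h and at 18.6, 35.3, 21.4 and 22.4 CPM at 4 h. Trem1, a receptor that amplifies inflammatory signals, was at 0.399, 0.0686, 0.397 and 0.337 CPM, then at 13.2, 11.2, 11.9 and 7.66 CPM and then at 56.7, 32.0, 44.1 and 37.4 CPM. For both genes each 4 h value lay above all 1 h values, with log2 differences of 2.60 ± 0.27 for Nt5e and 1.86 ± 0.19 for Trem1 (SE, adjusted p at most 3.6e-06).

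Both IL-1 receptors, neighbours on chromosome 1, were members. Il1r1, the signalling receptor (chr1:40225080-40317257, plus strand), was at 0.709, 1.03, 1.14 and 0.337 CPM untreated, at 3.50, 3.83, 2.73 and 2.23 CPM at 1 h and at 30.1, 37.6, 31.3 and 25.7 CPM at 4 h. Il1r2, the decoy receptor, was at 0.149 to 0.480 CPM, 3.35 to 4.86 CPM and 6.38 to 14.7 CPM. With 0.1 CPM added to each mean, 1 h was at 3.51 times untreated for Il1r1 and 10.9 times for Il1r2, and 4 h at 34.6 and 24.1 times. Log2 differences between 4 h and 1 h were 3.25 ± 0.21 for Il1r1 (SE; adjusted p = 2.9e-08) and 1.07 ± 0.25 for Il1r2 (SE; adjusted p = 0.0035).

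Ramp3, a partner protein of calcitonin family receptors, held 0, 2, 0 and 0 counts in the untreated libraries and was at 1.36 to 2.46 CPM at 1 h and 7.0 to 14.7 CPM at 4 h. Against the floor it was at least 10.4-fold higher at 1 h and at least 60.1-fold higher at 4 h. Ramp3 passed the floor of 2 CPM only through its 4 h level, so its rise was in part a condition of membership. Gpr35, a G protein-coupled receptor, went from 0.547 to 1.07 CPM to 8.78 to 17.1 CPM and on to 27.8 to 43.8 CPM. Clec4e, the lectin receptor Mincle, was at 25.7 to 35.2 CPM, 55.8 to 82.9 CPM and 118 to 163 CPM. Cytip, which binds cytohesins, was at 20.4 to 21.9 CPM untreated, 335 to 440 CPM at 1 h and 450 to 600 CPM at 4 h (0.31 ± 0.09, SE; adjusted p = 0.015), a call that was lost without the 1 h library of mouse 3 (adjusted p = 0.065) or the 4 h library of mouse 2 (adjusted p = 0.053). Cd14, the coreceptor for lipopolysaccharide, was at 617 to 749 CPM untreated, 3031 to 3466 CPM at 1 h and 3430 to 4150 CPM at 4 h and was not called between the times (0.13 ± 0.08, SE; adjusted p = 0.23). It was called higher with library size as the only scaling (adjusted p = 0.028). Cyth1, an exchange factor for Arf GTPases, was not called (0.14 ± 0.07, SE; adjusted p = 0.12) and was called higher with the mouse as a block (adjusted p = 0.019), with library size as the only scaling (adjusted p = 0.0076) and without the 1 h library of mouse 2 (adjusted p = 0.048). Gpr132, a receptor of the proton-sensing family, was lower at 4 h (-1.12 ± 0.14, SE; adjusted p = 2.4e-05).

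**Figure D4:**
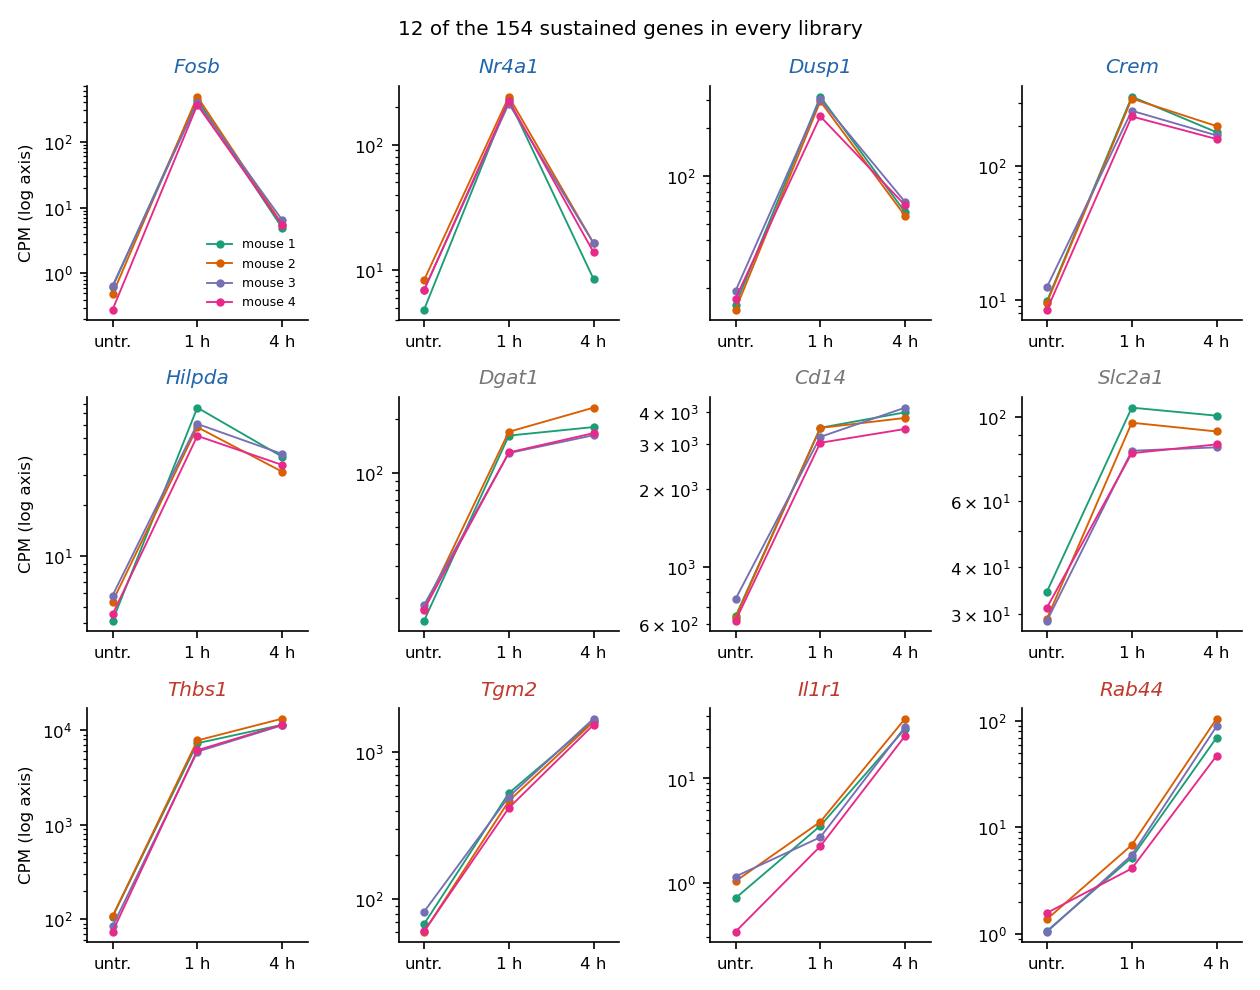
CPM of 12 members in each library (log axes), with untreated, 1 h and 4 h on the horizontal axis and 1 line per mouse. The colour of a name gives the edgeR call of 4 h against 1 h (blue lower, grey not called, red higher). Fosb peaked at 363 to 485 CPM at 1 h, Cd14 stayed between 3031 and 4150 CPM at both times, and Rab44 went on from 4.11 to 6.83 CPM at 1 h to 47.2 to 106 CPM at 4 h.

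**Figure D5:**
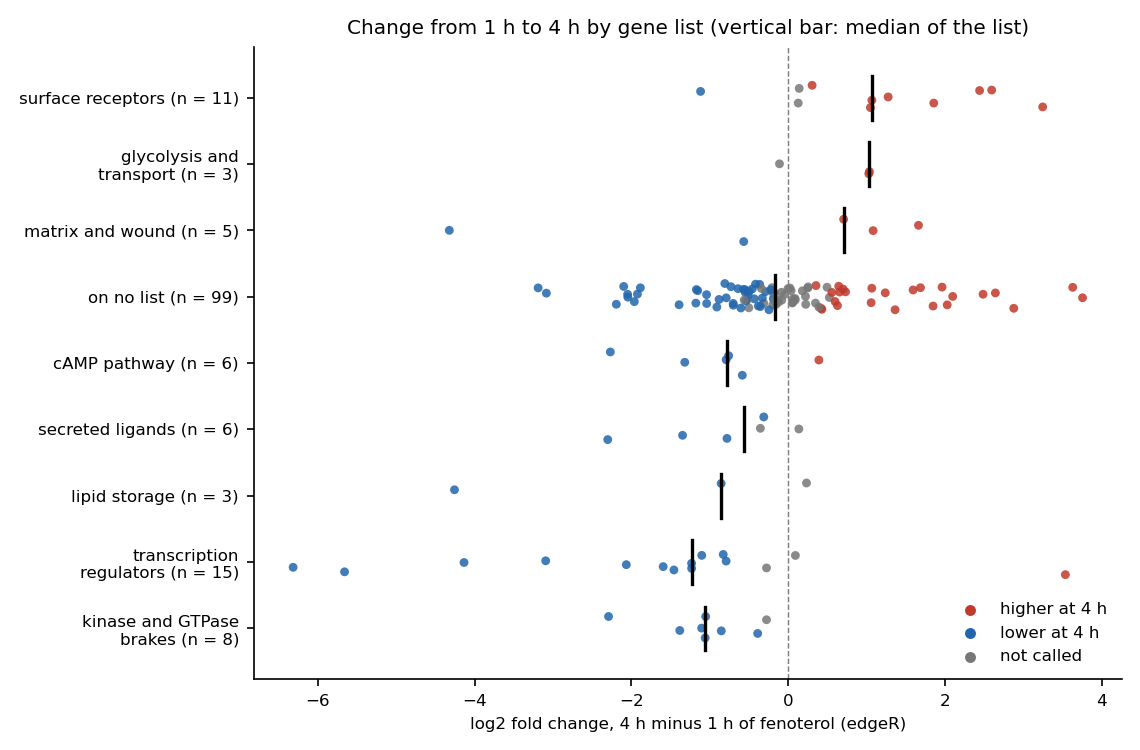
Each point is a member, placed by its log2 fold change of 4 h against 1 h, with the gene lists as rows and a black bar at each list's median. A gene on 2 lists appears in both. Transcription regulators (median -1.23) and kinase and GTPase brakes (median -1.05) lie left of 0, and surface receptors (median 1.07) lie right of it.

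On no list stood 99 members, of which 25 were higher at 4 h than at 1 h, 41 lower and 33 not called (median log2 difference -0.17). Over all members 26.0% were higher and 47.4% lower, and over all genes tested 18.7% and 19.8%. The largest rise of all members between the times was that of Rab44, a member of the Rab GTPase family (chr17:29114145-29148980, plus strand). It was at 1.06, 1.37, 1.04 and 1.57 CPM untreated, at 5.21, 6.83, 5.50 and 4.11 CPM at 1 h and at 69.8, 106, 89.3 and 47.2 CPM at 4 h. Its log2 difference between 4 h and 1 h was 3.76 ± 0.23 (SE; adjusted p = 1.6e-08). Gng4, a G protein gamma subunit, was at 0 to 0.310 CPM untreated, 0.383 to 1.05 CPM at 1 h and 5.88 to 13.9 CPM at 4 h. It was the member not called at 1 h against untreated. Tlr5, the receptor for flagellin, went from 2.53 to 5.01 CPM to 13.5 to 23.2 CPM and on to 62.7 to 103 CPM, and the lincRNA Gm38079, which begins 0.232 kb downstream of Tlr5 on the same strand, moved likewise (log2 differences 2.10 ± 0.19 and 2.49 ± 0.27, SE). Slc4a11, a membrane transporter, rose by 2.65 ± 0.20 (SE) and Dmkn, a secreted protein first known from epidermis, by 2.88 ± 0.25 (SE) on the log2 scale. Dmkn held 2, 0, 2 and 1 counts in the untreated libraries and was at least 33.8-fold higher than the floor at 4 h. Gng4, Gm38079, Slc4a11 and Dmkn passed the floor of 2 CPM only through their 4 h level, so their rise was in part a condition of membership.

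In the other direction, Slc25a33, a mitochondrial carrier of pyrimidine nucleotides, was at 2.02 to 2.95 CPM untreated, 66.7 to 89.3 CPM at 1 h and 8.07 to 9.28 CPM at 4 h. Pxdc1 was at 0.168 to 0.617 CPM, 8.98 to 11.9 CPM and 1.2 to 1.4 CPM. Both kept under 10% of their gain, with log2 differences of -3.19 ± 0.11 for Slc25a33 (SE; adjusted p = 1.5e-10) and -3.08 ± 0.20 for Pxdc1 (SE). As Pxdc1 passed the floor of 2 CPM only through its 1 h level, its fall was in part a condition of membership.

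The flat end of the set is shown by 4 members with a mean of at least 10 CPM and a small difference between the times. Ddit4, an inhibitor of mTORC1 signalling with a mean of 9.45 CPM, was under that limit, was picked out after its value was seen and had a log2 difference of -0.00016 ± 0.21 (SE; adjusted p = 1.0). For the 4, the log2 differences between 4 h and 1 h were 0.02 ± 0.08 for Rab11fip1, an effector of Rab11, 0.04 ± 0.09 for the zinc finger gene Zfp516, 0.05 ± 0.07 for the tetraspanin Tspan13 and 0.06 ± 0.20 for Fzd1, a Wnt receptor (SE, adjusted p from 0.61 to 0.85). A miss of the threshold does not show equal levels, and for Fzd1 the SE leaves room for a larger change than for the others.

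A few metabolic and cell cycle genes were picked out after their values were seen. Odc1, the first enzyme of polyamine synthesis, was at 6.38, 8.23, 8.94 and 3.37 CPM untreated, at 132, 130, 124 and 12.6 CPM at 1 h and at 147, 152, 179 and 18.3 CPM at 4 h. Mouse 4 was far below the others at both times and still followed the same order. In the fit, which ignored the pairing by mouse, the log2 difference between 4 h and 1 h had a large SE (0.22 ± 0.61; adjusted p = 0.81). The sign turned without the 1 h library of mouse 4, a fit that kept the low 4 h library of that mouse. Within each mouse 4 h was above 1 h, with log2 ratios of 0.149 to 0.534 after adding 0.1 CPM. Smox, which oxidises spermine, was at 51.9 to 60.9 CPM untreated, 123 to 151 CPM at 1 h and 172 to 221 CPM at 4 h, with mouse 4 within the range at 1 h (0.42 ± 0.09, SE; adjusted p = 0.0014). Gcsh, of the glycine cleavage system, rose by 0.70 ± 0.09 (SE) on the log2 scale after 1 h and Got1, the cytosolic aspartate aminotransferase, had a log2 difference of -0.38 ± 0.08 (SE). Cdkn1a, the cell cycle inhibitor p21, was at 231 to 256 CPM untreated, 905 to 1026 CPM at 1 h and 441 to 569 CPM at 4 h.

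At the limits of the rule stood Lmna, lamin A/C, with 2.01 times untreated at 1 h and 3.25 times at 4 h, Zcchc14 with 7.17 and 2.02 times, and Nr4a1 with 33.2 and 2.03 times. Just outside were Slc37a3 with 2.04 and 1.99 times, Emd with 1.99 and 1.99 times and Adam8 with 1.99 and 5.08 times.

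Gene structure is given here as medians without a test, and the quartile ranges of members that fell and members that rose after 1 h overlapped widely. Genes that fell spanned 17.6 kb with 6 exons and genes that rose 25.4 kb with 8 exons, against 21.9 kb and 8 exons over all genes tested. The pentamer ATTTA, part of AU-rich elements, occurred 1.82 times per kb of 3′ UTR in members that fell (quartiles 0.561 and 3.44), 1.13 times in members that rose (quartiles 0.345 and 1.96), 1.08 times in members not called and 1.35 times over all genes tested. All 154 members lay on autosomes and 149 were protein coding.

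Of the members, 13 pairs lay within 100 kb of each other. Rab44 begins 13.4 kb from Cdkn1a, and after 1 h the first rose and the second fell. Gpr132 and Jag2 were 39.6 kb apart, Fbxo31 and Zcchc14 19.9 kb and Dmwd and Dmpk 1.07 kb. Selp and the antisense gene Gm16587 overlap on opposite strands, and as the strand setting of the counting is not given in the sources used here, their counts are uncertain. Ctla2a and Ctla2b lie 36.7 kb apart on the same strand. Reads that match both were not examined, so their counts are uncertain too.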

How the data were processed

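RNA of 12 macrophage libraries (4 mice, 3 groups) was prepared with a stranded mRNA kit and sequenced as single reads of 50 bases on 1 lane. Per the labels, the authors aligned reads to GRCm38 with TopHat2 2.0.11 and counted reads per gene with HTSeq 0.8.0. The deposited values are raw counts for 53379 genes. The strand option and annotation release are not given in the sources used here. Gene symbols and positions were taken from tables for GRCm38 (53274 of 53379 identifiers matched).

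CPM used column totals. The members and gene lists were chosen with earlier results of these data known. Genes were tested with edgeR 4.0.16 (filterByExpr, TMM, quasi-likelihood, 1 fit of 3 group means over 12 libraries, 12386 genes), with Benjamini-Hochberg adjustment over all genes tested and a threshold of 0.05. SE is the log2 fold change divided by the root of F. The study's own fit was limma on variance-stabilised values, so the test here was chosen for counts. Up to 4 members with the highest mean CPM of each list, those with the largest folds, rises and falls, those at the rule's limits and the flattest (folds and flattest only with a mean of at least 10 CPM) were named, with others where a result turns on them, and some genes that this rule would name are not reported here. The lists were cAMP pathway, transcription regulators, kinase and GTPase brakes, lipid storage, glycolysis and transport, secreted ligands, matrix and wound, and surface receptors.

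Libraries with the same number came from the same mouse, per the labels. Deviations from group means correlated at 0.290 to 0.561 within a mouse (12 pairs) and at -0.304 to 0.0912 between mice (36 pairs), so a fit with the mouse as a block was an alternative. Replicates are 4 animals per group. Counts of replicate libraries differed by 9.71 to 20.0 times the sampling noise (chi-square per degree of freedom). Tested on simulated data for 4 h against 1 h over 12254 genes, edgeR recovered 77 of 100 genes at 2-fold and 55 of 100 at 1.41-fold, with 5 false calls. The simulated libraries had no mouse effect and far fewer changed genes than the data, so these numbers are not error rates for the data. SE and SD include the spread between mice, and floors cover counting error only. Other alternatives were DESeq2 1.42.0, limma-voom (limma 3.58.1), other scalings and filters, and each library left out.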

Additional observations from a re-analysis of the deposited data

Results flagged for a closer look

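The effect of fenoterol at 4 h differed from that at 1 h in 40 members that were higher and 73 that were lower at 4 h, by the edgeR test of 4 h against 1 h. As both effects share the untreated libraries, that test is the difference between them. Among the named genes that were higher, the log2 differences were 3.76 for Rab44, 3.63 for Gng4, 3.54 for Vdr, 3.25 for Il1r1, 2.88 for Dmkn, 2.65 for Slc4a11, 2.60 for Nt5e, 2.49 for Gm38079, 2.44 for Ramp3, 2.10 for Tlr5, 1.86 for Trem1 and 1.66 for Tgm2. The smaller rises were 1.28 for Gpr35, 1.09 for Sdc1, 1.07 for Il1r2, 1.05 for Clec4e, 1.04 for Slc16a3, 1.03 for Slc7a11, 0.71 for Thbs1, 0.70 for Gcsh, 0.60 for Lmna, 0.42 for Smox, 0.39 for Pde4d and 0.31 for Cytip. Among those that were lower, the log2 differences were -6.32 for Fosb, -5.66 for Nr4a3, -4.32 for Tnfaip6, -4.26 for Ptgs2, -4.13 for Nr4a1, -3.19 for Slc25a33, -3.09 for Nr4a2, -3.08 for Pxdc1, -2.30 for Osm, -2.29 for Dusp1, -2.27 for Sik1 and -2.06 for Nfil3. The next were -1.92 for Zcchc14, -1.59 for Fosl2, -1.38 for Pim1, -1.35 for Il1b, -1.32 for Pde4b, -1.23 for Fos, -1.23 for Cebpb, -1.12 for Gpr132, -1.10 for Dusp5, -1.04 for Cdkn1a, -0.85 for Hilpda and -0.85 for Sgk1. Smaller still were -0.79 for Crem, -0.78 for Vegfa, -0.76 for Adora2b, -0.58 for Rgs1, -0.57 for Plaur, -0.38 for Got1 and -0.31 for Tnfsf14. For Gng4, Vdr, Dmkn, Slc4a11, Gm38079 and Ramp3 the rise was in part a condition of membership. The same applies to the fall of Nr4a3, Tnfaip6, Ptgs2 and Pxdc1.

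In 13 of 204 groups of 4 libraries examined among the named genes, 1 library stood apart by Dixon's ratio, where chance gives about 1 in 20 groups. Mouse 2 was the high one at 4 h for Thbs1 (13247 CPM, the others 11273 to 11418), Vegfa (464 CPM, the others 352 to 362), Zfp516 (245 CPM, the others 216 to 218) and Fzd1 (20.3 CPM, the others 12.5 to 13.5), and at 1 h for Gm38079 (1.86 CPM, the others 0.779 to 0.913). Mouse 3 was low at 1 h for Adora2b (42.7 CPM, the others 48.7 to 49.8) and Plaur (179 CPM, the others 201 to 202), and high in untreated cells for Zcchc14 (21.8 CPM, the others 19.1 to 19.2). Mouse 4 was low at 1 h for Odc1 (12.6 CPM, the others 124 to 132) and Cdkn1a (905 CPM, the others 1013 to 1026), and high in untreated cells for Vdr (0.785 CPM, the others 0.266 to 0.343). Single untreated libraries had the only counts for Tnfaip6 (0.0443 CPM, mouse 1) and Ramp3 (0.137 CPM, mouse 2), in which the others were at 0. Mouse 4 was also the lowest for Odc1 in untreated cells and at 4 h.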

How the results depend on the processing

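The numbers of members higher and lower at 4 h than at 1 h (40 and 73) stayed within 1.5 times of these values under every alternative run. With the mouse as a block they were 45 and 77, with library size as the only scaling 46 and 67, with DESeq2 40 and 75, with limma-voom 41 and 76, and with 1 library left out 38 to 42 and 68 to 76. Library size as the only scaling moved the median log2 difference over all genes from 0.01 to 0.10. The block called 9 further members and lost none, those named being given beside their values. The number of members depends on the rule's fold, with 312 at 1.5-fold and 79 at 3-fold, and lay between 133 and 165 under the other rules tried, with 152 to 159 when a mouse was left out. Among cAMP genes that were not members, the number higher at 1 h was 11 in place of 7 with the mouse as a block, and the number lower at 1 h was 19 in place of 12 with library size as the only scaling. Directions turned in 8 named genes, none of them called in the contrast concerned. Adcy9 at 1 h was at 0.0023 with limma-voom. With 1 library left out, the log2 values ranged from -0.075 to 0.053 for Adcy9 at 1 h, and between 4 h and 1 h from -0.14 to 0.23 for Fzd1, from -0.0038 to 0.18 for Homer1, from -0.011 to 0.29 for Il1rn, from -0.15 to 0.59 for Odc1, from -0.046 to 0.077 for Rab11fip1, from -0.033 to 0.098 for Tspan13 and from -0.011 to 0.11 for Zfp516. The fits with 1 library left out ignored the pairing by mouse. The cause of these turns was not tested. At a depth of 14580533 to 24153284 counts, members near 0 in untreated cells have folds known only as lower bounds.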
